A study of Mus musculus with 7 samples.

Results

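The 9 genes described here mark or build GABAergic interneurons, the inhibitory nerve cells of the cortex. They were taken by name: Gad1, Gad2, Slc32a1, Dlx1, Dlx2, Dlx5, Dlx6, Lhx6 and Erbb4, and each was found by its Entrez identifier among the 26286 genes of the deposited count table. All 9 passed the filter on low counts that left 13681 genes for testing. Polyadenylated RNA was sequenced from brain samples labelled as cortical neurons, collected at E16.5 from 4 KAT7 mutant and 3 wild type mouse embryos. All were labelled male and C57BL/6. The KAT7 protein is a MYST-family enzyme that acetylates histones. The labels give neither the Kat7 allele nor any Cre line, and they give no age, treatment or strain difference between the genotypes.

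Cortical interneurons are born in the ganglionic eminences of the ventral forebrain and migrate into the cortex before birth. In the eminences DLX homeodomain factors, encoded by linked gene pairs, promote the GABAergic program, and LHX6 acts further along in cells of the medial eminence. The same GABA genes are also used by striatal neurons, so they are not specific to interneurons. Excitatory cortical neurons arise instead from dorsal progenitors.

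Gad2, Gad1, Dlx5, Dlx2 and Slc32a1 were higher in KAT7 mutant libraries, by 1.35- to 1.69-fold, whereas Lhx6 and Erbb4 were not called in either direction. Of the 9 members, 5 were called higher and 0 lower by the edgeR quasi-likelihood test at a Benjamini-Hochberg adjusted p under 0.05 over all tested genes. At an unadjusted p under 0.05 the counts were also 5 and 0. Across all tested genes 13.1% were called higher, 15.8% lower and 28.9% in either direction. The members had a median log2 fold change of 0.44 (KAT7 mutant over wild type), beside 0.003 for all tested genes. Because the members were chosen with earlier results of these data known, this contrast is no test of the list. DESeq2 and the robust edgeR fit each called 4 members higher and 0 lower, and limma-voom called 5 and 0. The count was 3 without wild type replicate 2 and 3 without wild type replicate 3, and in bulk RNA more cells of a type and more RNA per cell cannot be told apart.

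Libraries held 8272487 to 8813060 counts. Kat7 itself checks the labels: it had 3, 4, 3 and 10 counts in KAT7 mutant replicates 1 to 4, against 869, 848 and 854 in wild type replicates 1 to 3. KAT7 mutant replicate 1 stood apart from the other libraries, at 23.1 on the second principal component (9.8% of the variance) against -9.8 to -5 in the other mutant libraries and -1.5 to 1.6 in wild type. Without that library 4 members were called higher and 0 lower, the call of Dlx5 being lost. The label was checked against marker genes: summed excitatory cortical neuron markers reached 4830 to 5020 CPM, read counts scaled to equal library size, in KAT7 mutant and 4480 to 4910 CPM in wild type libraries, and the 9 GABAergic genes summed to 288 to 394 CPM in KAT7 mutant and 212 to 313 CPM in wild type libraries.

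**Figure D1:**
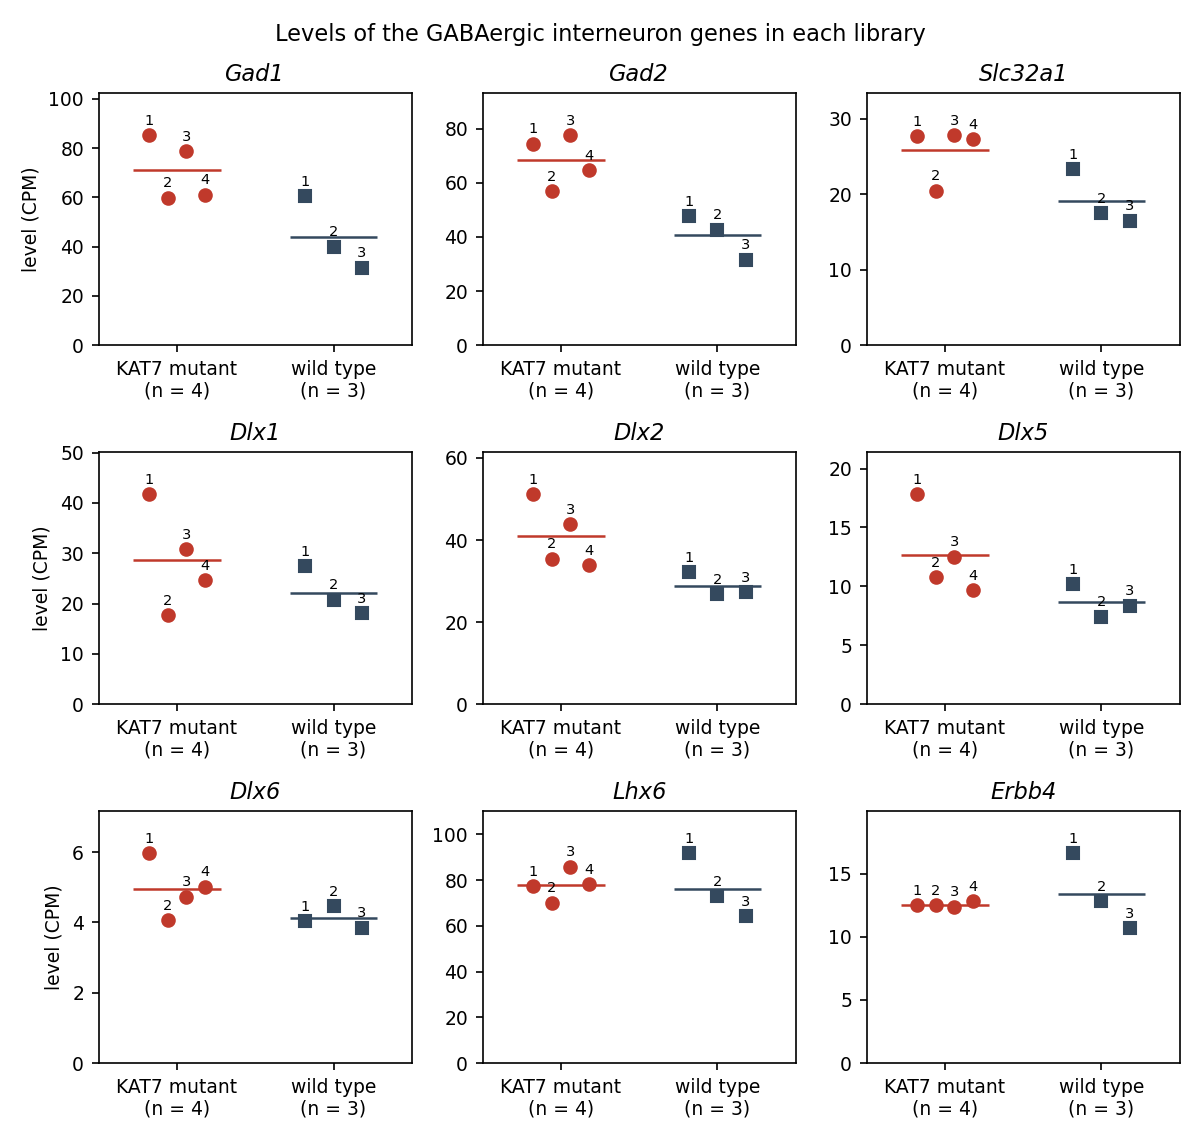
Level of each of the 9 genes in CPM, with KAT7 mutant libraries as red circles left of wild type libraries as dark squares. Numbers are replicate numbers and lines are group means. Every mutant library lies above every wild type library for Gad2 and Dlx2 alone, and the groups overlap for the other 7 genes.

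Gad1 and Gad2 encode the glutamate decarboxylases that make GABA, and both were higher in KAT7 mutant. Gad2 stood at 74.5, 56.9, 77.5 and 64.7 CPM in KAT7 mutant replicates 1 to 4, against 47.6, 42.6 and 31.6 CPM in wild type replicates 1 to 3. The genotypes did not overlap. Gad2 averaged 68.4 ± 9.42 CPM in KAT7 mutant (SD, n = 4) and 40.6 ± 8.21 CPM in wild type (SD, n = 3), which gave a log2 fold change of 0.76 ± 0.11 (SE), edgeR adjusted p = 3.92e-05. It was called in all 16 alternative settings, with the log2 fold change between 0.602 and 0.88.

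Gad1 had 85.1, 59.9, 78.6 and 61.1 CPM in KAT7 mutant replicates 1 to 4, against 60.4, 39.9 and 31.5 CPM in wild type replicates 1 to 3. Wild type replicate 1 was above KAT7 mutant replicate 2, so the genotypes overlapped. The means were 71.2 ± 12.6 CPM in KAT7 mutant (SD, n = 4) and 43.9 ± 14.9 CPM in wild type (SD, n = 3), and the log2 fold change was 0.70 ± 0.15 (SE), edgeR adjusted p = 0.00148. DESeq2 (adjusted p = 0.052) and the robust edgeR fit (adjusted p = 0.116) did not call it, at log2 fold changes of 0.70 each. Among the Gad1 alternatives the adjusted p ran from 1.17e-14, in edgeR with no count filter, to 0.116 in the robust edgeR fit. With 1 library left out the edgeR adjusted p of Gad1 was 8.86e-06 to 0.0174.

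Slc32a1 encodes the transporter that loads GABA into synaptic vesicles. Its levels were 27.7, 20.5, 27.8 and 27.3 CPM in KAT7 mutant replicates 1 to 4, against 23.3 and 17.5 CPM in wild type replicates 1 and 2 and a lower value, of 146 counts, in wild type replicate 3. Here 3 mutant libraries were nearly equal and replicate 2 was low, below wild type replicate 1. Slc32a1 averaged 25.8 ± 3.53 CPM in KAT7 mutant (SD, n = 4) and 19.1 ± 3.65 CPM in wild type (SD, n = 3), and its log2 fold change was 0.44 ± 0.13 (SE), edgeR adjusted p = 0.0123. The call was lost without wild type replicate 2 (0.374, adjusted p = 0.0753) and without wild type replicate 3 (0.341, adjusted p = 0.0812).

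Dlx1 and Dlx2 lie next to each other on chromosome 2, Dlx5 and Dlx6 on chromosome 6, and of each pair 1 gene was called. Dlx2, a homeodomain factor expressed in ventral progenitors, had 51.1, 35.4, 43.8 and 33.9 CPM in KAT7 mutant replicates 1 to 4, against 32.2, 26.8 and 27.3 CPM in wild type replicates 1 to 3. All mutant libraries were above all wild type libraries. The means were 41.0 ± 8.00 CPM in KAT7 mutant (SD, n = 4) and 28.7 ± 2.99 CPM in wild type (SD, n = 3), the log2 fold change was 0.52 ± 0.12 (SE), and the edgeR adjusted p was 0.00239. Dlx2 was called in all 16 alternative settings. Only Gad2 and Dlx2, 2 of the 9 members, were without overlap between genotypes, as were 35.3% of all tested genes in either direction.

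Dlx1, a homeodomain factor related to Dlx2, was the most variable member among mutant libraries relative to its mean, with 41.7, 17.7, 30.8 and 24.6 CPM in KAT7 mutant replicates 1 to 4, against 27.4, 20.8 and 18.1 CPM in wild type replicates 1 to 3. KAT7 mutant replicate 1 was the highest library and replicate 2 the lowest of all 7. The log2 fold change of 0.38 ± 0.19 (SE) was not called (edgeR adjusted p = 0.153). It was called without KAT7 mutant replicate 2 (0.553, adjusted p = 0.0136) and with no count filter (0.376, adjusted p = 0.00369), and it was 0.14 without KAT7 mutant replicate 1.

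Dlx5 and Dlx6 encode homeodomain factors expressed after Dlx1 and Dlx2 in the ventral lineage. Dlx5 had 17.8, 10.8, 12.5 and 9.66 CPM in KAT7 mutant replicates 1 to 4, against 10.2, 7.44 and 8.37 CPM in wild type replicates 1 to 3. The genotypes overlapped, since wild type replicate 1 was above KAT7 mutant replicate 4. Its log2 fold change was 0.55 ± 0.18 (SE), edgeR adjusted p = 0.026, and the call was lost without KAT7 mutant replicate 1 (0.342, adjusted p = 0.0962), without wild type replicate 2 (0.449, adjusted p = 0.136) and without wild type replicate 3 (0.527, adjusted p = 0.0783). Dlx6, of the lowest level in CPM, had 5.96, 4.06, 4.73 and 5.01 CPM in KAT7 mutant and 4.04, 4.46 and 3.85 CPM in wild type. With 34 to 51 counts in a library, its log2 fold change of 0.26 ± 0.19 (SE) was not called (edgeR adjusted p = 0.315). Whether the members of a Dlx pair differ in their response was not tested.

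Lhx6, a LIM homeodomain factor of interneurons from the medial ganglionic eminence, differed between genotypes by less than the spread of libraries. It had 77.3, 70.1, 85.8 and 78.1 CPM in KAT7 mutant replicates 1 to 4, against 91.6, 72.9 and 64.1 CPM in wild type replicates 1 to 3. The wild type libraries spanned a wider range than the mutant libraries, on both sides. Lhx6 averaged 77.8 ± 6.39 CPM in KAT7 mutant (SD, n = 4) and 76.2 ± 14.0 CPM in wild type (SD, n = 3), and its log2 fold change was 0.03 ± 0.09 (SE), edgeR adjusted p = 0.828.

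Erbb4 encodes the receptor for neuregulins, which guides migrating interneurons. Erbb4 had 12.5, 12.5, 12.4 and 12.8 CPM in KAT7 mutant replicates 1 to 4, against 16.6, 12.8 and 10.7 CPM in wild type replicates 1 to 3. The mutant libraries were nearly equal and lay inside the wild type range. The log2 fold change was -0.09 ± 0.13 (SE), with an edgeR adjusted p of 0.663, and it was 0.0887 without wild type replicate 1. The sign of the Lhx6 value also turned, to -0.0778 when wild type replicate 3 was left out, -0.00178 for wild type replicate 2 and -0.0212 for KAT7 mutant replicate 3.

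**Figure D2:**
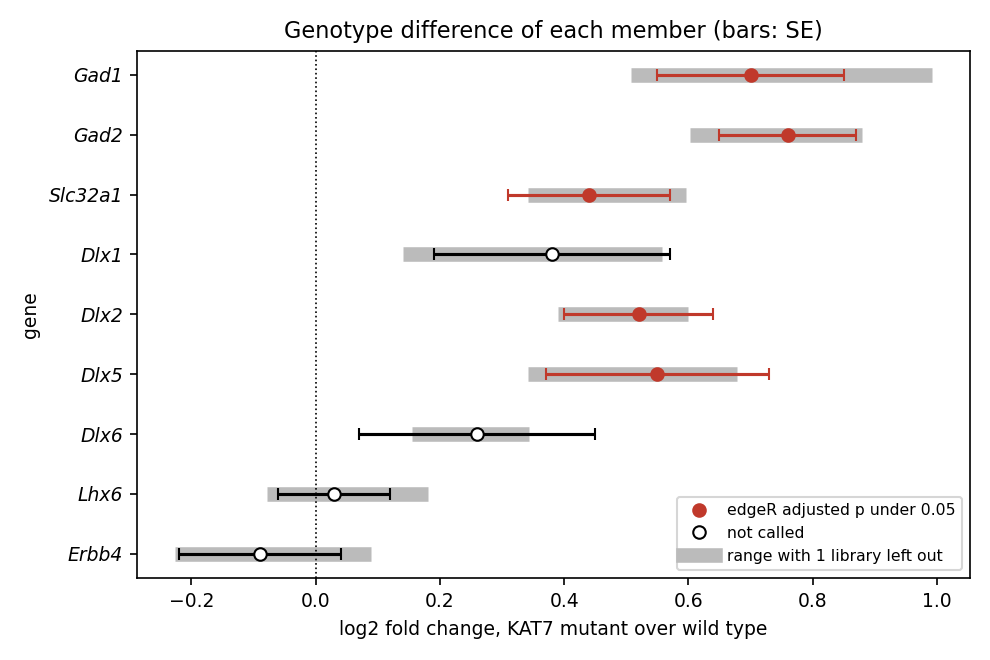
Log2 fold change of each member, KAT7 mutant over wild type, with SE bars. Filled red points were called by edgeR and open points were not, and grey bands span the fits with 1 library left out. The points of Gad2 (0.76) and Gad1 (0.70) lie farthest right, and those of Lhx6 (0.03) and Erbb4 (-0.09) lie at 0 with bands on both sides of it.

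The windows upstream of Gad2 and Dlx2, the members called in every setting, are shown with those of Gad1 and of Lhx6, which was not called. They hold the 250 bases before a RefSeq transcription start in build GRCm38.p6, from chr2:22622077-22622326 on the plus strand, chr2:71546755-71547004 on the minus strand, chr2:70561879-70562128 on the plus strand and chr2:36105409-36105658 on the minus strand. Lhx6 has 3 listed starts, and the first is used. Capitals mark CG dinucleotides.
Gad2: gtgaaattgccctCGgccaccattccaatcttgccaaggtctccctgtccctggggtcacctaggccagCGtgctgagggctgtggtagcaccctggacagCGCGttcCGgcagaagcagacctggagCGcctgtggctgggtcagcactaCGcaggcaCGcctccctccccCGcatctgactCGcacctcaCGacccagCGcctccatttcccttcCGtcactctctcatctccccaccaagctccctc
Dlx2: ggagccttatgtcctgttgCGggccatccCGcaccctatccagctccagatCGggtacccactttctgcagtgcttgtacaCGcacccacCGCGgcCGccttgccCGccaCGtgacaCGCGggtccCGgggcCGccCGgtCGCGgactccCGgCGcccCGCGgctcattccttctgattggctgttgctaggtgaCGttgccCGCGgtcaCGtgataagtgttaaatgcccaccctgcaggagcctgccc
Gad1: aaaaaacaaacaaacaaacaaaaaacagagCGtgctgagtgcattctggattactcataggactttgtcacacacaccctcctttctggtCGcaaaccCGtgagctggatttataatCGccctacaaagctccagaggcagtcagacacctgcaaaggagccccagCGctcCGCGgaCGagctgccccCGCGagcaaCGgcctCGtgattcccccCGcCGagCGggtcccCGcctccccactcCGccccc
Lhx6: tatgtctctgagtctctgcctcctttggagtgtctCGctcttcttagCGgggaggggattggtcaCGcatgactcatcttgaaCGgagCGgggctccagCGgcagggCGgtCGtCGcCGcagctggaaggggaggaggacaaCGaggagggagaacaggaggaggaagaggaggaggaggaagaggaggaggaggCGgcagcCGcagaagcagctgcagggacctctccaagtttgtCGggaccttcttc

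Of the 9 members, 7 have windows in this table and 2, Dlx5 and Dlx6, are named only. The number of CG dinucleotides was 13 for Gad2, 24 for Dlx2, 17 for Gad1 and 14 for Lhx6, and the median over 32851 windows of all genes was 6. Of all windows, 68.5% had fewer than Gad2, 88.0% fewer than Dlx2, 76.5% fewer than Gad1 and 70.6% fewer than Lhx6. Slc32a1 and Erbb4 had 12 each. Dlx1, the neighbour of Dlx2, had 22. The homeodomain core TAATTA, which is its own reverse complement and so was counted once for both strands, was in 0 of the 9 windows of these 7 members and in 4.84% of all windows. The shorter TAATT, searched on both strands and contained in TAATTA, was in 25.0% of all windows and, among the members, in the third Lhx6 window alone. These letters being absent says nothing about binding of a factor elsewhere.

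Per kilobase of deposited gene length, where levels of different genes can be compared, the order of the means differed at the top between genotypes. In KAT7 mutant Gad1 came first at 22.0 ± 3.89 CPM per kb and Lhx6 second at 21.8 ± 1.79 CPM per kb (SD, n = 4). In wild type Lhx6 was at 21.3 ± 3.91 CPM per kb and Gad1 at 13.6 ± 4.61 CPM per kb (SD, n = 3). Next was Dlx2, at 16.6 ± 3.23 CPM per kb in KAT7 mutant and 11.6 ± 1.21 CPM per kb in wild type. Gad2, Dlx1, Slc32a1 and Dlx5 followed, at 9.02 to 12.2 CPM per kb in KAT7 mutant and 6.17 to 7.96 CPM per kb in wild type, each apart from its neighbour by less than the larger of their SDs. Dlx6 and Erbb4 were the lowest, at 4.61 and 2.95 CPM per kb in KAT7 mutant and at 3.84 and 3.15 CPM per kb in wild type. Gad1 and Lhx6 differed by less than the larger SD in KAT7 mutant, as did Gad1 and Dlx2, and Dlx6 and Erbb4, in wild type.

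After these values were seen, the counts of Gad1 and Gad2 together were set against those of Lhx6 within each library, a ratio that no scaling between libraries can change. On the log2 scale it was 1.05, 0.74, 0.86 and 0.69 in KAT7 mutant replicates 1 to 4, against 0.24, 0.18 and -0.03 in wild type replicates 1 to 3. Every mutant library was above every wild type library. The ratio averaged 0.83 ± 0.16 in KAT7 mutant (SD, n = 4) and 0.13 ± 0.14 in wild type (SD, n = 3), a difference of 0.70. No test is given, since the ratio was picked for these values. With 1 library left out the difference was 0.624 to 0.757.

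**Figure D3:**
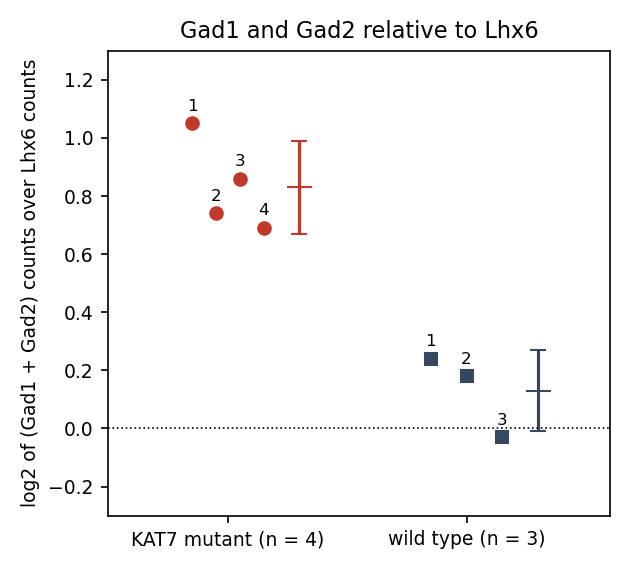
Log2 of summed Gad1 and Gad2 counts over Lhx6 counts in each library, KAT7 mutant (red circles) left of wild type (dark squares). Numbers are replicate numbers, and bars at the side show mean and SD. The mutant libraries lie at 0.69 to 1.05, above all wild type libraries at -0.03 to 0.24. The ratio was picked after the values of these genes were seen.

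Libraries of a genotype fell in a similar order for many members. Wild type replicate 1 was the highest wild type library for 8 of the 9 genes, Dlx6 being the exception, and wild type replicate 3 the lowest for 7. Among mutant libraries, replicate 1 was highest for 5 genes (Gad1 and the 4 Dlx genes) and replicate 3 for 3 (Gad2, Slc32a1 and Lhx6), and replicate 2 was lowest for 6. Averaged over the 9 genes, the centred log2 CPM (each gene minus its mean over the 7 libraries) came to 0.41, -0.08, 0.26 and 0.07 in KAT7 mutant replicates 1 to 4, against 0.04, -0.27 and -0.44 in wild type replicates 1 to 3. Wild type replicate 1 was thus above KAT7 mutant replicate 2 on this average. The summed endothelial and blood markers were 80.5, 58.1, 167 and 107 CPM in KAT7 mutant replicates 1 to 4, against 133, 39.8 and 26.0 CPM in wild type replicates 1 to 3. Among wild type libraries these sums too were highest in replicate 1 and lowest in replicate 3. They were mostly globin reads, such as Hba-a2 at 53.7, 14.1 and 10.7 CPM in wild type replicates 1 to 3. The endothelial markers Kdr (2.85, 3.89 and 2.72 CPM) and Pecam1 (0.712, 1.26 and 0.679 CPM) were highest in replicate 2. The part of blood or endothelial cells in the member levels was not tested.

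**Figure D4:**
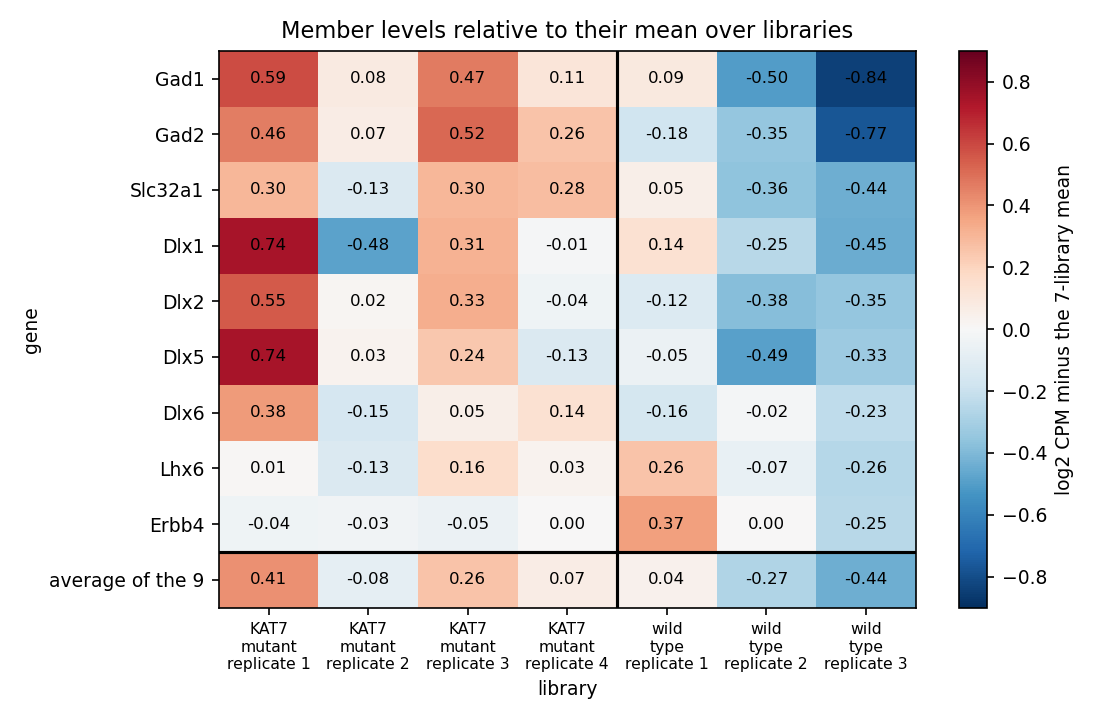
Log2 CPM of each member minus its mean over the 7 libraries, KAT7 mutant columns left of wild type columns, with the average of the 9 genes in the bottom row (red above and blue below the mean). Wild type replicate 3 is at -0.84 for Gad1 and -0.77 for Gad2, and Lhx6 and Erbb4 are highest in wild type replicate 1 (0.26 and 0.37).

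Among the 5 tested genes whose profiles over the 7 libraries were nearest the average profile of the members, by root mean square difference in log2 CPM, were Rdh14 (0.0827), Setd7 (0.0919), Mphosph10 (0.0987) and Ppp2r3c (0.103). Of these Mphosph10 and Ppp2r3c rose, by 0.29 and 0.38 on the log2 scale (edgeR adjusted p = 0.0276 and 0.00405), and Mphosph10 lost its call without KAT7 mutant replicate 1 (0.222), wild type replicate 2 (0.231) or wild type replicate 3 (0.244). Rdh14 and Setd7 were not called (edgeR adjusted p = 0.101 and 0.102), although Setd7 was called without KAT7 mutant replicate 2 (0.42). These genes were picked for resembling an average profile that itself holds the genotype difference. Their fold changes therefore follow in part from that choice, and their calls are no separate result.

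Opposite-strand transcripts of Dlx1 and Dlx6 were both called higher, while Dlx1 and Dlx6, at log2 fold changes of 0.38 and 0.26, were not. Whether a gene and its opposite-strand transcript differ in their response was not tested. Dlx1as, a noncoding transcript that overlaps Dlx1, had 168, 133, 157 and 132 CPM in KAT7 mutant replicates 1 to 4, against 114, 88.6 and 77.9 CPM in wild type replicates 1 to 3. The genotypes did not overlap, and Dlx1as rose by 0.66 ± 0.10 (SE) on the log2 scale, edgeR adjusted p = 4.66e-05. Dlx6os1, which overlaps Dlx6, averaged 51.4 ± 14.0 CPM in KAT7 mutant (SD, n = 4) and 36.3 ± 3.40 CPM in wild type (SD, n = 3). Its log2 fold change was 0.50 ± 0.14 (SE), edgeR adjusted p = 0.012. That call was lost in DESeq2 (adjusted p = 0.131), in the robust edgeR fit (adjusted p = 0.197) and without wild type replicate 3 (0.439, adjusted p = 0.0608). Strand use in counting is not given, so reads of Dlx1 and Dlx1as, and of Dlx6 and Dlx6os1, cannot be told apart where they overlap. The same limit may apply to other members whose spans overlap listed genes: Gad1 (Gad1os), Gad2 (Mir3967), Slc32a1 (Gm14204) and Erbb4 (Gm25542 and Gm51744). Dlx6os2 (0.935 to 1.16 CPM in KAT7 mutant and 0.453 to 0.594 CPM in wild type), Dlx3 and Dlx4 did not pass the count filter. Dlx3 had at most 0.117 CPM in any library and Dlx4 was at 0 in all 7. Of 6 other genes near the Dlx pairs, 5 were tested and 0 were called in either direction, beside 28.9% of all tested genes. The count was also 0 at an unadjusted p under 0.05 and by DESeq2 and limma-voom, with a median log2 fold change of -0.08. So few genes cannot show whether a change is confined to the Dlx genes. The tested neighbours include Itga6 (28.3 ± 1.24 CPM in KAT7 mutant and 28 ± 2.78 CPM in wild type, SD) and Sem1 (55.9 CPM in KAT7 mutant and 59.3 CPM in wild type). Sdhaf3 (1.66 and 1.69 CPM) and Slc25a13 (2.01 and 2.31 CPM) were low in both genotypes.

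Factors of ventral progenitors were higher in 4 of 5 tested genes and lower in 0, at a median log2 fold change of 0.96. Across all tested genes 13.1% were higher and 15.8% lower. Sp9, a zinc finger factor of ventral lineages, had 21.5, 11.9, 15 and 12 CPM in KAT7 mutant replicates 1 to 4, against 7.84, 5.84 and 6.67 CPM in wild type replicates 1 to 3. It rose by 1.16 ± 0.19 (SE) on the log2 scale, edgeR adjusted p = 1.13e-04. Olig2, also an oligodendrocyte factor, had 3.51, 4.75, 8.62 and 5.38 CPM in KAT7 mutant replicates 1 to 4, against 2.02, 1.95 and 1.24 CPM in wild type replicates 1 to 3. The genotypes did not overlap, and Olig2 rose by 1.67 ± 0.30 (SE) on the log2 scale, edgeR adjusted p = 2.41e-04. Sp8, a relative of Sp9 chosen after its values were seen, was at 12.9 CPM in KAT7 mutant replicate 1 and 3.42 to 4.37 CPM in the other mutant libraries, against 2.26 to 4.27 CPM in wild type, and was not called (0.96, edgeR adjusted p = 0.0707). Its log2 fold change was 0.281 without KAT7 mutant replicate 1, and it was called without KAT7 mutant replicate 2 (1.14), replicate 3 (1.09) or replicate 4 (1.15), with the replicate block (1.08) and with no count filter. Gsx1, Gsx2, Nkx2-1, Nkx6-2 and Lhx8, which pattern or specify the eminences, did not pass the count filter, with no library above 0.978 CPM.

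**Figure D5:**
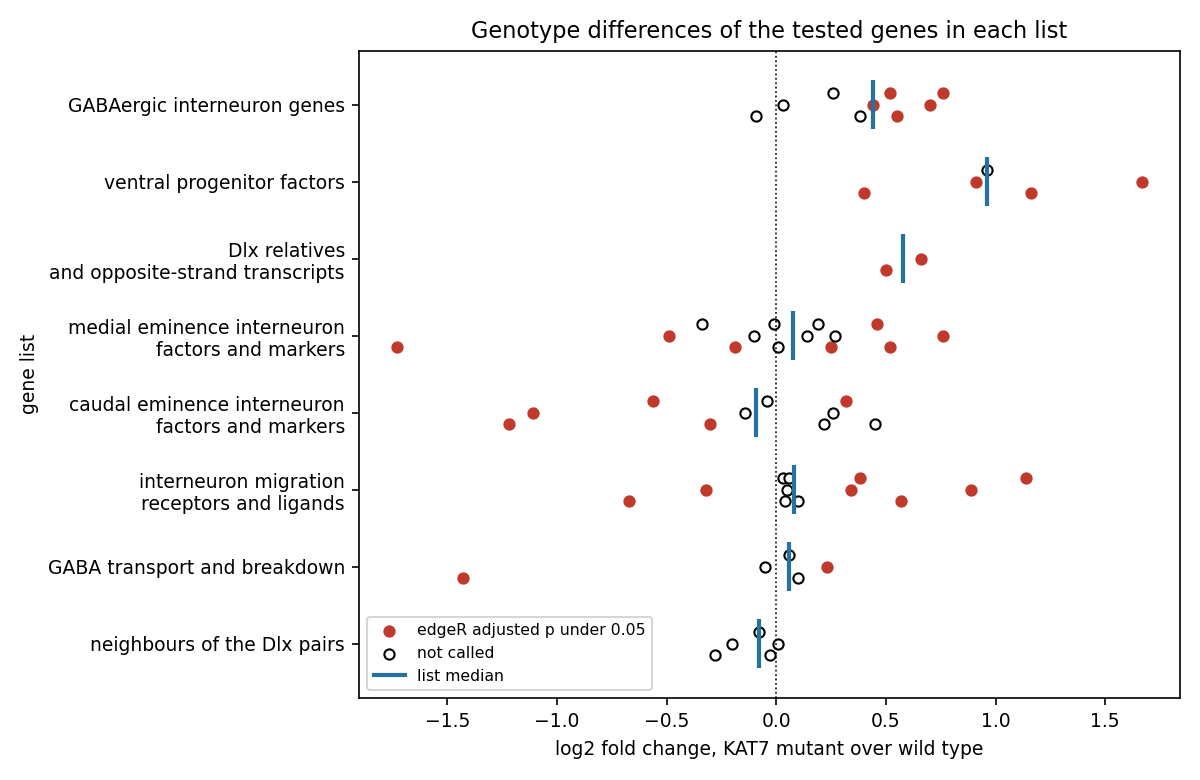
Log2 fold change, KAT7 mutant over wild type, of each tested gene in 8 lists. Filled red points were called by edgeR, open points were not, and blue lines are list medians. The median is 0.96 for ventral progenitor factors and 0.44 for the GABAergic interneuron genes, and it lies between -0.09 and 0.08 for the medial, caudal, migration, transport and Dlx-neighbour lists.

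Genes listed for later interneuron classes did not move in a single direction, and whether their reads came from interneurons was not tested. Of 14 tested factors and markers of medial eminence interneurons, 4 were higher, 3 lower and 7 not called, at a median log2 fold change of 0.07. Over all tested genes 13.1% were called higher and 15.8% lower. Nos1, the neuronal nitric oxide synthase, rose by 0.52 (edgeR adjusted p = 4.76e-04) and Mef2c by 0.25 (edgeR adjusted p = 6.60e-04). Nxph2, a neurexophilin, fell by 1.73 on the log2 scale (edgeR adjusted p = 5.66e-07), with 2.58 CPM in KAT7 mutant and 8.56 CPM in wild type. Sst, the peptide of a large interneuron class and chosen after its values were seen, averaged 68.2 ± 17.6 CPM in KAT7 mutant (SD, n = 4) and 96.0 ± 37.1 CPM in wild type (SD, n = 3), with wild type replicate 1 at 139 CPM. The genotypes overlapped. Its log2 fold change of -0.49 ± 0.18 (SE) had an edgeR adjusted p of 0.0467, rested on wild type replicate 1, without which it was -0.132 (adjusted p = 0.541), and was lost in DESeq2 (adjusted p = 0.326), limma-voom (adjusted p = 0.0627) and the robust edgeR fit (adjusted p = 0.347). It was also lost without KAT7 mutant replicate 2 (-0.511), replicate 3 (-0.436) or replicate 4 (-0.367), which left 2 lower genes in the list for replicates 2 and 3. Over the Sst alternatives with 1 library left out the adjusted p ran from 0.00376 to 0.541. Pvalb was at 0 in all 7 libraries.

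Of 10 tested caudal eminence genes, 4 were lower, 1 higher and 5 not called, at a median log2 fold change of -0.09. The shares over all tested genes were 15.8% lower and 13.1% higher. Calb2, a calcium-binding protein, fell by 1.22 on the log2 scale (edgeR adjusted p = 4.40e-06), with 4.91, 4.29, 4.13 and 4.89 CPM in KAT7 mutant replicates 1 to 4, against 9.02, 11.9 and 10.9 CPM in wild type replicates 1 to 3. Prox1, a homeobox factor that is also abundant in the hippocampus, fell by 1.11 (edgeR adjusted p = 3.78e-05). The cannabinoid receptor gene Cnr1, which excitatory cortical neurons express too, fell by 0.56 (edgeR adjusted p = 1.21e-06), and Nr2f1, a nuclear receptor, fell by 0.30 (edgeR adjusted p = 6.02e-04). The count of higher genes in this list was 3 when KAT7 mutant replicate 1 was left out, 2 for KAT7 mutant replicate 2, 0 for KAT7 mutant replicate 4 or wild type replicate 2, and 0 in DESeq2 and the robust edgeR fit. Vip was at 0 in all 7 libraries.

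GABA transport and breakdown genes gave 1 higher and 1 lower of 5 tested, at a median log2 fold change of 0.06. All tested genes gave 13.1% higher and 15.8% lower. Slc6a11, a GABA uptake transporter found mainly in astrocytes, had 6.43, 9.39, 9.33 and 9.41 CPM in KAT7 mutant replicates 1 to 4, against 25.1, 25.6 and 19.3 CPM in wild type replicates 1 to 3. It fell by 1.43 on the log2 scale, edgeR adjusted p = 1.30e-07. Aldh5a1, an enzyme of GABA breakdown, rose by 0.23 (edgeR adjusted p = 0.0338) and was not called by DESeq2 or when KAT7 mutant replicate 1 or 2 or any of the 3 wild type replicates was left out.

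Among migration receptors and ligands, 5 of 12 tested genes were higher, 2 lower and 5 not called, at a median log2 fold change of 0.08. For all tested genes the shares were 13.1% higher and 15.8% lower. The ErbB4 ligand gene Nrg1 fell by 0.67 (edgeR adjusted p = 4.90e-04), with 7.27 CPM in KAT7 mutant and 11.6 CPM in wild type, and Nrg3, chosen after its values were seen, fell by 0.32 (edgeR adjusted p = 0.00628). Nrg4, chosen likewise, rose by 1.14 (edgeR adjusted p = 0.0468) at 1.54 CPM in KAT7 mutant and 0.689 CPM in wild type. DESeq2 and the replicate block did not call Nrg4, nor was it called without wild type replicate 1 or 2, and Nrg3 lost its call without wild type replicate 3 (-0.254). Nrg4 passed the count filter in 4 of the 7 fits with 1 library left out. Gfra1, a GDNF receptor, rose by 0.89 (edgeR adjusted p = 3.33e-04), the semaphorin receptor gene Nrp2 by 0.57 (edgeR adjusted p = 2.04e-04) and Sema3a, which encodes a repulsive semaphorin, by 0.34 (edgeR adjusted p = 7.89e-04). The robust edgeR fit did not call Nrp2 (adjusted p = 0.0505). Without wild type replicate 2 the list had 3 higher genes, and without wild type replicate 3 it had 1 lower gene. Of the other ErbB receptors, Egfr and Erbb2 were tested and neither was called, also at an unadjusted p under 0.05 and by DESeq2 and limma-voom, with 2.67 and 1.33 CPM in KAT7 mutant and 3.15 and 1.88 CPM in wild type.

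Markers of other cells that use or accompany the GABA genes gave the counts below, to be read beside 13.1% higher and 15.8% lower over all tested genes. Of 10 tested striatal projection neuron markers 4 were higher, including Drd1 (1.12) and Six3 (3.33), and 3 lower, including Meis2 (-0.42). Six3 rests on few reads, with 41, 11, 24 and 7 counts in KAT7 mutant replicates 1 to 4, against 1, 1 and 4 counts in wild type replicates 1 to 3. Its log2 fold change was 4.23 without wild type replicate 3, and it passed the count filter in 4 of the 7 fits with 1 library left out (3.02 to 4.23). The sum of the striatal markers was 725 to 856 CPM in KAT7 mutant and 788 to 891 CPM in wild type. Most of it came from Bcl11b (means of 363 CPM in KAT7 mutant and 318 CPM in wild type) and Meis2 (337 and 451 CPM). The sum therefore says little of the markers at low levels, such as Drd1 and Six3. Drd2 and Isl1 were among the markers at 0 in at least 1 library. Isl1 had 24 counts in KAT7 mutant replicate 1, 0, 4 and 3 in replicates 2 to 4, and 0 to 2 in wild type. Ebf1, chosen after its values were seen, was also highest there, at 4.09 CPM against 0.696 to 1.47 CPM in the other mutant libraries. Drd1 was highest in KAT7 mutant replicate 2, at 11 CPM. The number of striatal markers called higher was 2 without KAT7 mutant replicate 1, KAT7 mutant replicate 3 or wild type replicate 1. Of 8 oligodendrocyte lineage markers 4 were higher and 1 lower (sum 38.3 to 56.7 CPM in KAT7 mutant and 34.2 to 39.9 CPM in wild type), and of 6 tested microglia markers 4 were higher and 0 lower (26.9 to 36.0 CPM in KAT7 mutant and 17.4 to 20.0 CPM in wild type), or 2 in DESeq2 and without KAT7 mutant replicate 3, KAT7 mutant replicate 4 or wild type replicate 1. Trem2 and P2ry12 were among the microglia markers at 0 in a library. Of 10 excitatory markers 2 were higher and 4 lower, and of 10 pan-neuronal markers 3 were higher and 2 lower. Endothelial and blood markers gave 0 calls of 6 tested in either direction, with 2 higher at an unadjusted p under 0.05, 0 by DESeq2 and 1 by limma-voom, and 4 higher without wild type replicate 1. Leaving out KAT7 mutant replicate 2 or 4, or wild type replicate 2, gave 1 higher. The part of these cells in the member levels was not tested.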

How the data were processed

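Whole-number read counts per gene were deposited for 7 libraries, together with Entrez identifiers and gene lengths. The submitters' processing notes name featureCounts and build mm9. The aligner, the annotation release and any strand setting were not given in the sources used here. Gene length, in bases as deposited, served for CPM per kb. Symbols came from a RefSeq table of GRCm38.p6, by identifier (24176 of 26286, 92%), and coordinates of that build are given for the printed windows only.

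Genes were filtered with filterByExpr (minimum count 10), scaled by TMM and compared in 1 model of genotype with the two-sided edgeR 4.0.16 quasi-likelihood F test in R 4.3.3, with Benjamini-Hochberg adjustment over 13681 genes. CPM use TMM-adjusted library sizes, and centred profiles a prior count of 2. SE was derived from the log2 fold change and F. Total counts were 8272487 to 8813060. Replicates were taken as separate mice, from the design text. Libraries of 1 genotype differed beyond sampling error (chi-square per gene 2.03 to 3.62), and each was counted as its own sample.

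Members and lists were chosen with earlier results of these data known. Named were Kat7, the members, the Dlx relatives, up to 4 called genes of each other list (or the 2 most abundant where none was called) and the 5 genes of nearest profile with a mean of at least 5 CPM. Untested list genes are named for their low level, and other names are marked. Some genes that this rule names are not reported here. Alternatives used RLE factors, upper-quartile factors, library size alone, all genes unfiltered, at least 1 CPM in 3 libraries, DESeq2 1.42.0, limma-voom (limma 3.58.1), a robust edgeR fit, a replicate block, and each library left out. The Gad to Lhx6 ratio was added after the data were seen. The test script was tested on simulated data.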

Additional observations from a re-analysis of the deposited data

Results flagged for a closer look

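Slc32a1 in KAT7 mutant replicate 2, at 20.5 CPM, lay far below the other mutant libraries, which stood at 27.3 to 27.8 CPM. Its gap to the nearest of them was 0.931 of the range of the 4 libraries. This is past Dixon's limit for 4 libraries, a limit that chance passes in about 1 of 20 groups, and 10 values (9 genes and their average) were examined. Without this library the log2 fold change of Slc32a1 was 0.53. The highest wild type library stood at 23.3 CPM.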

How the results depend on the processing

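Of the members, Gad2 and Dlx2 kept their call in all 16 alternatives and Dlx6, Lhx6 and Erbb4 were not called in any of the 16. The number of members called higher was 4 in DESeq2 and in the robust edgeR fit, 6 with no count filter and 5 under the other scalings, filters and limma-voom. With 1 library left out it was 3 to 6 (3 without wild type replicate 2 and 3 without wild type replicate 3), and the cause was not tested. The number called lower was 0 in every alternative. Genes called over the whole table numbered 1273 to 1868 higher and 1727 to 2395 lower.

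Among the named genes, the sign turned in 3 that were not called: with 1 library left out, Lhx6 ran from -0.0778 to 0.18, Erbb4 from -0.226 to 0.0887 and Itga6 from -0.0732 to 0.0528, and Itga6 was -0.00324 with library size only. Replicate numbers did not pair the libraries (correlations of deviations 0.018, 0.012 and -0.029 for numbers 1 to 3). With the replicate block 5 members were called higher, and 1460 genes higher and 1943 lower over the table. In the lists, the block called 2 excitatory markers lower in place of 4, and no count filter called 4 excitatory, 4 endothelial and blood and 2 caudal eminence genes higher. Counts of 34 to 51 a library limit what can be said of Dlx6.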
